A study of Homo sapiens with 12 samples.

Results

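Laminin-332 and hemidesmosome genes were followed in 2 pancreatic ductal adenocarcinoma lines: LAMA3, LAMB3, COL17A1, ITGA6, ITGB4, PLEC, DST, EPPK1 and FERMT1. These 9 genes were taken by symbol from a table of 60564 genes, and all 9 are among the 12860 genes with at least 1 FPKM in at least 3 of the 12 libraries. FPKM counts fragments relative to transcript length and to the library's total, so it is a level per length. The members were selected on function and on the measured changes from control to induced cells in these libraries, LAMB3 in CFPAC-1 and EPPK1 in BxPC-3 among them. For that reason each such change is given as a description, and a pass of the threshold there is not independent evidence.

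The established human lines CFPAC-1 and BxPC-3 were grown in normal culture (control) or without serum for 48 h, which induces primary cilia (induced). Each of the 4 groups holds 3 libraries of total RNA. Per the series text, which states no error, cilia were seen in 7% of CFPAC-1 cells before and 39% after starvation. For BxPC-3 these shares were 5% and 78%. Every induced library was from starved cells, and the cilia shares are given per condition, not per library. Effects of starvation and of cilia cannot be told apart here. The labels do not say whether libraries come from separate cultures, so a p-value measures only the spread between these libraries, which may be technical. No genotype, transgene or drug is labelled, and depth in reads is unknown.

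Laminin-332 is the laminin of epithelial basement membranes, a multi-chain protein whose alpha 3 and beta 3 chains are encoded by LAMA3 and LAMB3. Hemidesmosomes are the plaques that hold epithelial cells to it: integrin alpha 6 beta 4 and collagen XVII span the membrane, and the plakins plectin and dystonin tie them to keratin filaments inside. Epiplakin, from EPPK1, is a keratin-binding plakin. Kindlin-1, from FERMT1, activates beta 1 integrins at focal adhesions. In pancreatic cancer, laminin-332 and its integrin are widely studied as an adhesion and invasion system of the tumour cells.

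Some libraries stood apart from their group. Over all tested genes, the libraries labelled CFPAC-1 control 2 and control 3 correlated at 0.99 with each other and at a mean of 0.803 with the other 4 CFPAC-1 libraries, which correlated at 0.944 among themselves. CDKN2A, a cell cycle inhibitor gene, was listed at 0 in both and at 25.2 to 58.2 FPKM in the other 4. LDHB, a lactate dehydrogenase subunit gene, stood at 177 and 186 FPKM in the pair and at 0 in the other 4. Whether this pair is the labelled line was not tested. Changes in CFPAC-1 are therefore also given without controls 2 and 3. In all 4 groups libraries 2 and 3 were the closest pair, with correlations of 0.987 to 0.99.

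The epithelial label was checked on marker levels. CDH1, the cadherin of epithelial junctions, lay between 0.18 and 0.892 FPKM in CFPAC-1 and between 38.1 and 61.0 FPKM in BxPC-3. VIM, the mesenchymal intermediate filament gene, lay between 569 and 975 FPKM in CFPAC-1 and between 4.41 and 11.5 FPKM in BxPC-3. The keratin genes KRT8 and KRT18 were at 43.1 FPKM or more in all 12 libraries. Of the duct markers, CFTR was at or near 0 throughout and CA2 was at most at 0.872 FPKM. SOX9, also on the duct list, lay between 13.2 and 55.1 FPKM in CFPAC-1 and between 2.2 and 17.1 FPKM in BxPC-3. MUC1 lay between 1.49 and 35.3 FPKM over the 12 libraries. KRT7 lay between 0.34 and 2.0 FPKM in CFPAC-1 and between 396 and 586 FPKM in BxPC-3. In CFPAC-1 controls 2 and 3, KRT19 was at 7.42 and 7.67 FPKM and EPCAM at 0.963 and 1.04 FPKM. In the other CFPAC-1 libraries KRT19 was at 254 FPKM or more and EPCAM at 11.2 FPKM or more. KRT8 and KRT18 thus met the epithelial label in both lines, while CDH1, VIM and KRT7 went against it in CFPAC-1. The identity of that line was not tested. PTPRC, which defines white blood cells, was at most at 0.00981 FPKM, and the acinar genes CPA1 and AMY2A and the endocrine genes INS, GCG and SST were listed at 0 in all libraries. Other markers of these lists were present. CD68, a lysosomal gene used as a macrophage marker, stood at 37.1 to 47.8 FPKM in induced CFPAC-1, LYZ reached 3.47 FPKM there, and the acinar gene PRSS1 reached 2.89 FPKM in BxPC-3.

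Sequence is shown first for the laminin genes, because, of the 9 genes, LAMB3 had the largest change in CFPAC-1 and LAMA3 the largest difference between the induced lines. RefSeq promoter windows on GRCh38.p14 were matched for 5 of the 9 genes (LAMA3, LAMB3, ITGA6, COL17A1 and DST), 10 windows in all. The 250 bases before each start were searched for TGANTCA, the letters bound by AP-1 factors, which read the same pattern on both strands. The motif was found in 2 of the 10 windows, 1 at an internal start of LAMB3 and 1 at an internal start of LAMA3. Over all genes, 6.57% of 35116 windows hold it. Capitals mark the motif, and each line reads 5′ to 3′ along the gene's strand.
LAMB3, chr1:209651395-209651624, minus strand: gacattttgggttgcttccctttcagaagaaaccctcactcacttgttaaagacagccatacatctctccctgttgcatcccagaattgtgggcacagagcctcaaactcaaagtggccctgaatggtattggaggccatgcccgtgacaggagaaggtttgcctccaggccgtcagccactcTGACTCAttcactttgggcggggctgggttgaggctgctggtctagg
LAMA3, chr18:23872885-23872911, plus strand: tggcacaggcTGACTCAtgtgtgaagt
LAMA3, chr18:23872941-23872967, plus strand: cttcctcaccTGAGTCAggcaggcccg
The LAMB3 stretch of 230 bases lies inside the gene and in no annotated exon of it, and the internal start after it lies 1092 bases downstream of the first annotated base of the gene. In LAMA3 the motifs begin 125 and 69 bases before an internal start that lies 183577 bases downstream of the gene's first base, inside an exon of another annotated transcript. A match is a run of letters, and binding was not measured here.

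LAMB3 (ENSG00000196878, chr1:209614870-209652466, minus strand) encodes the beta 3 chain. In CFPAC-1 it stood at 84.0, 0.559 and 0.507 FPKM in controls 1, 2 and 3. The induced libraries 1, 2 and 3 held 451, 242 and 189 FPKM. All 3 induced libraries lay above all 3 controls, and the low control mean rests on controls 2 and 3. The change was 5.56 ± 1.18 (SE) on the log2(FPKM + 1) scale, with an adjusted p of 0.0133 in limma. Without controls 2 and 3 it was 1.70 ± 0.415 (SE), with an adjusted p of 0.0724 in limma, and the lone control was then assumed to vary like the other groups. BxPC-3 held LAMB3 at 114, 168 and 132 FPKM in controls and at 127, 144 and 149 FPKM in induced libraries. These ranges overlap, with a change of 0.03 ± 1.18 (SE). The estimate of spread is shared by all 4 groups, and without CFPAC-1 controls 2 and 3 the SE of this BxPC-3 change was 0.294.

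LAMA3 (ENSG00000053747, chr18:23689443-23956222, plus strand) encodes the alpha 3 chain. It was low in CFPAC-1, at 1.34, 0.0681 and 0.0762 FPKM in controls 1 to 3 and at 1.08, 1.04 and 1.49 FPKM in induced libraries. Control 1 lay inside the induced range, and controls 2 and 3 lay below it. The change was 0.66 ± 0.293 (SE) with all libraries, turned to -0.09 without controls 2 and 3, and did not pass in either. In BxPC-3 the controls held 13.5, 13.6 and 15.4 FPKM and the induced libraries 26.5, 16.2 and 17.8 FPKM. Every induced BxPC-3 library was above every control, with library 1 far above the other two, and the change of 0.45 ± 0.293 (SE) did not pass the threshold (limma, adjusted p = 0.747).

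**Figure D1:**
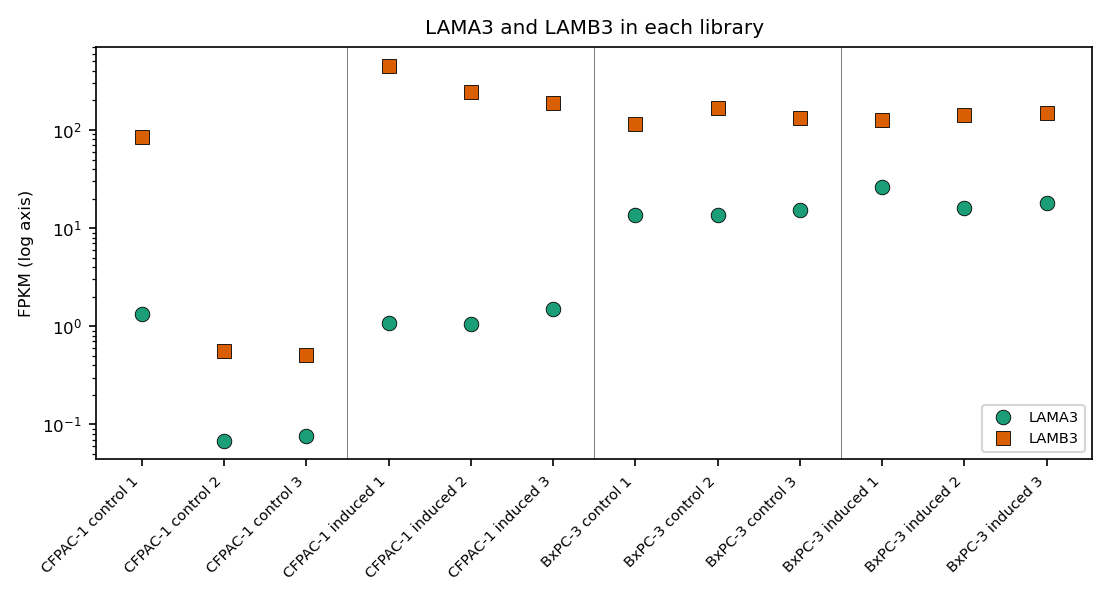
FPKM of LAMA3 and LAMB3, the alpha 3 and beta 3 chain genes of laminin-332, in each of the 12 libraries on a log axis; each point is 1 library. LAMA3 is below LAMB3 in every library, and LAMB3 is below 1 FPKM in CFPAC-1 controls 2 and 3 only.

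The alpha 3 and beta 3 chain genes were not at equal levels per length. In induced CFPAC-1 cells LAMB3 stood 127 to 420 times over LAMA3, while in BxPC-3 it stood 4.78 to 12.4 times over LAMA3. The CFPAC-1 ratio rests on a low LAMA3 level, at 1.04 to 1.49 FPKM in induced libraries. LAMA3 has 15 annotated transcript starts, and the table does not separate its isoforms. The ratio was 62.6 in CFPAC-1 control 1, below the induced range, and 8.21 and 6.66 in controls 2 and 3, where both genes were below 1 FPKM.

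COL17A1 (ENSG00000065618, chr10:104031286-104085957, minus strand) encodes collagen XVII, the transmembrane collagen of the plaque. CFPAC-1 controls 1 to 3 held 69.2, 0.00679 and 0.0315 FPKM, and the induced libraries 52.5, 50.1 and 57.6 FPKM. Control 1 was above all induced libraries while controls 2 and 3 were near 0. The change was 3.70 ± 1.26 (SE) with all libraries and -0.37 without controls 2 and 3, so the direction turned, and neither passed the threshold. In BxPC-3 the controls held 149, 88.4 and 84.2 FPKM and the induced libraries 303, 119 and 126 FPKM. Library 1 was the highest of its group in both conditions, and the ranges overlap.

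ITGB4 (ENSG00000132470, chr17:75721328-75757818, plus strand) encodes the integrin beta 4 chain, whose long tail binds plectin. It was at 192, 5.00 and 4.84 FPKM in CFPAC-1 controls and at 211, 208 and 209 FPKM in induced cells. All induced libraries were higher, control 1 by little and controls 2 and 3 by far. The fit gave 3.48 ± 1.02 (SE), with an adjusted p of 0.0407 in limma, and 0.13 ± 0.306 (SE) without controls 2 and 3, where it did not pass. BxPC-3 held 124, 80.2 and 71.8 FPKM in controls and 120, 89.6 and 92.2 FPKM in induced libraries, which overlap. The gene overlaps GALK1 on the other strand, and the use of strand is not given in the sources used here, so some reads may be shared.

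ITGA6 (ENSG00000091409, chr2:172427354-172506282, plus strand) encodes the alpha 6 chain, which also pairs with integrin beta 1. CFPAC-1 controls held 43.3, 11.2 and 11.2 FPKM and induced libraries 29, 14.9 and 21.7 FPKM. Induced values thus lay between control 1 and the other two controls. The change was 0.24 ± 0.479 (SE) with all libraries and -1.0 without controls 2 and 3. BxPC-3 had 28.4, 23.8 and 27.8 FPKM in controls and 51.0, 45.8 and 21.8 FPKM in induced libraries, of which 2 were above all controls and 1 below. An antisense gene, AC078883.1, overlaps ITGA6.

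Per length, ITGB4 exceeded ITGA6 in 10 of 12 libraries. The ratio was 7.29 to 13.9 in induced CFPAC-1, 4.43 in CFPAC-1 control 1 and 1.96 to 4.36 in BxPC-3. In CFPAC-1 controls 2 and 3 it was 0.447 and 0.431, the only libraries where the alpha chain was the higher.

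**Figure D2:**
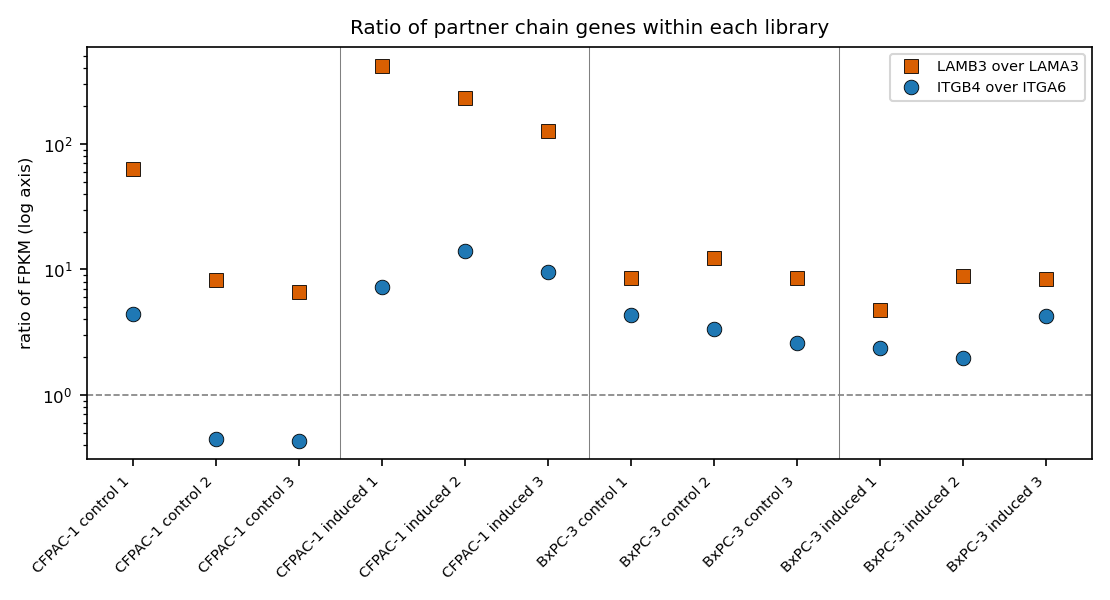
Ratio of LAMB3 to LAMA3 and of ITGB4 to ITGA6 in FPKM, on a log axis, in each of the 12 libraries; the dashed line is a ratio of 1. ITGB4 to ITGA6 is below 1 in CFPAC-1 controls 2 and 3 only, at 0.447 and 0.431, and LAMB3 to LAMA3 is highest in induced CFPAC-1, at 127 to 420.

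FERMT1 (ENSG00000101311, chr20:6074845-6123544, minus strand), the kindlin-1 gene, was at 66.7, 0.128 and 0.131 FPKM in CFPAC-1 controls. Induced CFPAC-1 libraries held 59.8, 21.4 and 39.9 FPKM, all below control 1 and above controls 2 and 3. The change was 3.11 ± 1.21 (SE) with all libraries, turned to -0.83 without controls 2 and 3, and did not pass in either. BxPC-3 libraries were alike in level, at 40.3, 28.2 and 28.1 FPKM in controls and 34.1, 32.7 and 32.4 FPKM in induced cells.

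PLEC (ENSG00000178209, chr8:143915147-143976734, minus strand) encodes plectin, the linker from the integrin to keratin. In CFPAC-1 it stood at 203, 70.9 and 71.8 FPKM in controls and at 102, 149 and 155 FPKM in induced libraries. BxPC-3 held 114, 90.8 and 84.8 FPKM in controls and 92.6, 36.8 and 59.6 FPKM in induced libraries. Induced and control ranges overlap in both lines, and neither change passed. The CFPAC-1 change was 0.39 with all libraries and turned to -0.61 without controls 2 and 3. PLEC was, with ITGA6, a gene that stayed above 10 FPKM in CFPAC-1 controls 2 and 3.

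DST (ENSG00000151914, chr6:56457987-56954628, minus strand) encodes dystonin, whose epithelial isoform BPAG1e sits in the plaque. Its level was low in all libraries. CFPAC-1 controls held 1.48, 1.90 and 1.89 FPKM and induced libraries 0.822, 0.227 and 0.346 FPKM, with no overlap and with controls 2 and 3 close to control 1. It fell by 0.93 ± 0.238 (SE) on the log2(FPKM + 1) scale, with an adjusted p of 0.0263 in limma. Without controls 2 and 3 the change was -0.78 ± 0.347 (SE) and did not pass (limma, adjusted p = 0.275). In BxPC-3 it was 1.36, 2.77 and 2.96 FPKM in controls and 1.76, 1.05 and 1.04 FPKM in induced libraries, where control 1 lay inside the induced range. The gene has 34 annotated transcript starts, and the table does not separate the epithelial isoform from the others.

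EPPK1 (ENSG00000261150, chr8:143857324-143878464, minus strand) was the member whose BxPC-3 change passed. BxPC-3 controls held 4.09, 8.68 and 7.81 FPKM and induced libraries 2.5, 1.76 and 1.77 FPKM. The ranges do not overlap, although control 1 was lower than controls 2 and 3. The gene fell by 1.34 ± 0.235 (SE), with an adjusted p of 0.0417 in limma, and with an adjusted p of 0.056 when CFPAC-1 controls 2 and 3 were left out of the shared estimate of spread. Within number 1 the change was -0.54, and within numbers 2 and 3 it was -1.81 and -1.67. In CFPAC-1 EPPK1 lay between 0.282 and 0.598 FPKM in all 6 libraries, with no difference larger than their spread.

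**Figure D3:**
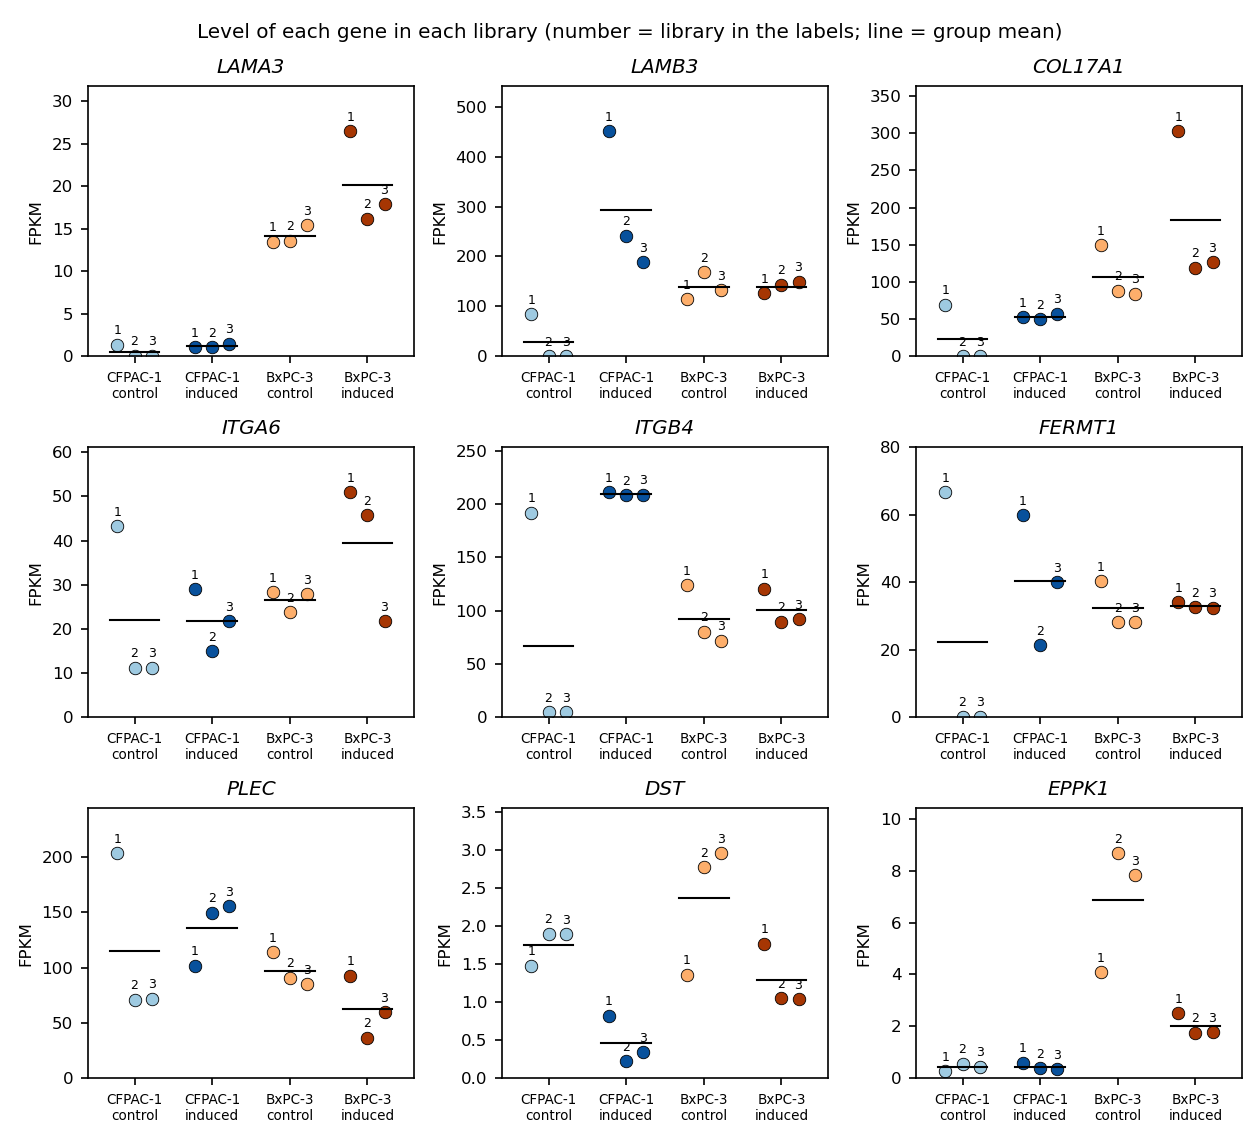
FPKM of each of the 9 genes in each library, on linear axes from 0 that differ between panels; points are libraries, numbered as in the labels, and lines are group means. In CFPAC-1, controls 2 and 3 lie below control 1 for all genes but DST and EPPK1, and EPPK1 in BxPC-3 lies between 4.09 and 8.68 in controls and between 1.76 and 2.5 in induced cells.

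Counted over the list, LAMB3 and ITGB4 rose and DST fell in CFPAC-1, and 6 of 9 did not pass. Of all tested genes, 16.6% passed in that comparison, 7.85% higher and 8.77% lower. These were 1010 higher and 1128 lower, or 774 higher and 1765 lower when libraries were scaled to a common sum without mitochondrially encoded genes. Groups did not overlap for 2 members that were higher and 1 that was lower, against 14% and 17.6% of all tested genes. The median change was 0.66 over the 9 genes and -0.09 over all tested genes. Without controls 2 and 3, limma called none of the 9, with 2 at an unadjusted p under 0.05, against 1.73% of all tested genes called. The medians were then -0.37 and -0.05. Controls 2 and 3 were both below the other 4 CFPAC-1 libraries for 7 of the 9 genes and both above for DST. Over all tested genes these shares were 25% and 30.9%. The members were chosen in part on changes that include these controls, so this count too is a description.

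In BxPC-3, limma called EPPK1, which fell, and 8 of 9 did not pass, against 0.334% of all tested genes called and 0.0389% called lower. With CFPAC-1 controls 2 and 3 out of the spread it called none of the 9, with 2 at an unadjusted p under 0.05, and 0.404% of all. Ranges did not overlap for LAMA3, which was higher, and for EPPK1, which was lower, against 12.4% and 4.84% of all tested genes. The median change was 0.06 over the 9 and 0.06 over all tested genes. Limma's test of the difference between the changes of the lines called none of the 9, with 3 at an unadjusted p under 0.05, against 2.45% of all tested genes. Without controls 2 and 3 it again called none, with 3 at an unadjusted p under 0.05, against 0.428%. With all libraries EPPK1 had the smallest adjusted p (limma, -1.35 ± 0.332 (SE), adjusted p = 0.0564), followed by LAMB3 (limma, -5.53 ± 1.67 (SE), adjusted p = 0.092). The difference was -1.51 for EPPK1 and -1.66 for LAMB3 without controls 2 and 3 (limma, adjusted p = 0.135 and 0.166). Hence a change particular to 1 line was not shown for any of them.

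**Figure D4:**
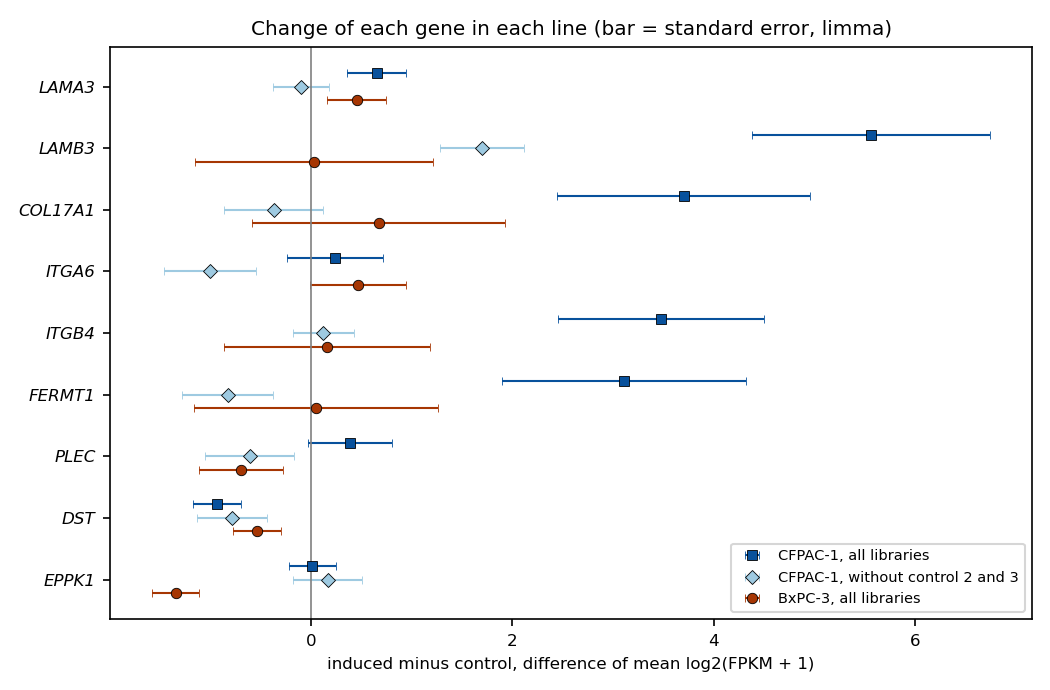
Change of each gene from control to induced cells, as a difference of mean log2(FPKM + 1) with its standard error from limma, in CFPAC-1 with all libraries, in CFPAC-1 without controls 2 and 3, and in BxPC-3. Leaving out controls 2 and 3 moves LAMB3 from 5.56 to 1.70 and ITGB4 from 3.48 to 0.13, and turns COL17A1 and FERMT1 to -0.37 and -0.83. The spread is shared by all groups, so the BxPC-3 bars also hold that of the CFPAC-1 controls. Without controls 2 and 3 the BxPC-3 SE of COL17A1 is 0.351 in place of 1.26.

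Marker sums moved within the groups as well. The summed level of 6 epithelial markers was 1075 FPKM in CFPAC-1 control 1, 599 and 638 in controls 2 and 3, and 443 to 1037 in induced cells. KRT19, a duct keratin gene, was at 532 FPKM in control 1, 7.42 and 7.67 in controls 2 and 3, and 254 to 627 in induced cells. The summed level of 7 fibroblast and mesenchymal markers was 603 to 706 FPKM in CFPAC-1 controls and 1001 to 1075 in induced cells, most of it VIM, and 5.74 to 12.6 FPKM in BxPC-3. VIM changed by 0.64 in CFPAC-1 and did not pass (limma, adjusted p = 0.0754), while LUM, the gene of a matrix proteoglycan, rose by 4.30 (limma, adjusted p = 0.0274), and by 0.83 without controls 2 and 3, where it did not pass. The summed level of 5 immune markers was 6.67 to 12.9 FPKM in CFPAC-1 controls and 40.7 to 48.0 in induced cells, most of it CD68, and 1.86 to 6.98 FPKM in BxPC-3. CD68 rose by 2.16 in CFPAC-1 (limma, adjusted p = 0.00339), and by 1.61 without controls 2 and 3 (limma, adjusted p = 0.0897). MUC1, a mucin gene on the duct list, rose by 2.57 (limma, adjusted p = 0.0142), and by 1.23 without them, where it did not pass. The share of summed FPKM from mitochondrially encoded genes was 34.0% in CFPAC-1 control 1, 19.9% in controls 2 and 3 and 11.6% to 22.8% in induced cells. In BxPC-3 it was 24.6% to 28.8% in controls and 18.6% to 22.3% in induced cells, with no overlap. Their part in the laminin and hemidesmosome values was not tested. In such bulk RNA, fewer cells of a type and less RNA per cell cannot be told apart.

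The induced cells of the lines were then compared, a contrast in which controls 2 and 3 enter only through the estimate of spread. LAMA3 was higher in BxPC-3 by 3.24 ± 0.293 (SE), with an adjusted p of 1.17e-05 in limma. EPPK1 was higher by 1.05 ± 0.235 (SE) with an adjusted p of 0.0052, and PLEC was lower, at -1.16 ± 0.418 (SE) with an adjusted p of 0.0483, both in limma. Of all tested genes, 36.2% passed, 21.4% higher and 14.8% lower. Ranges of the lines did not overlap for 4 members higher and 3 members lower in BxPC-3, against 32.1% and 22.4% of all tested genes, and did overlap for ITGA6 and FERMT1. Without controls 2 and 3 in the spread, 44% of all tested genes passed, and limma also called COL17A1 higher (1.62, adjusted p = 0.00435), LAMB3 lower (-0.97, adjusted p = 0.0226) and ITGB4 lower (-1.06, adjusted p = 0.00312). The PLEC call was lost under several settings, with an adjusted p of 0.0956 after quantile normalization.

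The order of group means put ITGB4 and LAMB3 near the top in both induced lines. In induced CFPAC-1 the means were 294 ± 139 (SD, n = 3) FPKM for LAMB3, 209 ± 1.66 for ITGB4, 136 ± 29.3 for PLEC, 53.4 ± 3.82 for COL17A1 and 40.4 ± 19.2 for FERMT1. ITGA6 followed at 21.9 ± 7.03, LAMA3 at 1.2 ± 0.247, DST at 0.465 ± 0.315 and EPPK1 at 0.445 ± 0.134. Of neighbours in this order, LAMB3 and ITGB4 overlapped, as did COL17A1 and FERMT1, FERMT1 and ITGA6, and DST and EPPK1. In induced BxPC-3 COL17A1 led at 183 ± 104 FPKM, then LAMB3 at 139.8 ± 11.8, ITGB4 at 101 ± 17.1, PLEC at 63.0 ± 28.1 and ITGA6 at 39.5 ± 15.6. FERMT1 at 33.1 ± 0.913, LAMA3 at 20.2 ± 5.53, EPPK1 at 2.01 ± 0.421 and DST at 1.28 ± 0.416 came last. There, COL17A1 overlapped with LAMB3, ITGB4 with PLEC, PLEC with ITGA6, and ITGA6 with FERMT1, and the lowest EPPK1 library was level with the highest of DST.

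Around the 9 genes, 10 lists of partners, ligands and regulators with 105 genes were examined, 84 of them tested. In CFPAC-1, 9 rose and 4 fell of the 84, a share in both directions together that is near the background, since 16.6% of all tested genes were called, 7.85% higher and 8.77% lower. With controls 2 and 3 left out limma called none of the 84, with 15 at an unadjusted p under 0.05, against 1.73% of all tested genes called. In BxPC-3 limma called none, with 9 at an unadjusted p under 0.05, and 1 when CFPAC-1 controls 2 and 3 were left out of the fit. That gene was DAG1, a laminin receptor named after its values were seen. In BxPC-3 it was at 2.47, 1.04 and 6.16 FPKM in controls and 28.8, 18.1 and 25.8 FPKM in induced cells. With all libraries its BxPC-3 change was 2.74 (limma, adjusted p = 0.355). In CFPAC-1 DAG1 was at 37.3, 51.0 and 2.30 FPKM in controls and 20.6, 21.4 and 23.6 FPKM in induced cells. CFPAC-1 controls 2 and 3 thus lay far apart for this gene, though they correlated at 0.99 over all tested genes. The median change over the 84 genes was 0.12 in CFPAC-1, 0.04 there without controls 2 and 3, and -0.10 in BxPC-3.

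Of 4 other tested laminin chain genes, 1 rose in CFPAC-1. LAMB2, the beta 2 chain gene, went from 15.3, 16.2 and 15.0 FPKM to 30.8, 25.2 and 25.0 FPKM, a change of 0.76 (limma, adjusted p = 0.00995). Its 3 controls were close together, and without controls 2 and 3 the change was 0.78 (limma, adjusted p = 0.0935). Of 9 tested laminin receptor genes, SDC4, a syndecan, rose by 1.10 and ITGA3, the alpha 3 integrin chain for laminin-332, fell by 1.17 (limma, adjusted p = 0.0415 and 0.0109). SDC4 was at 1.31 without controls 2 and 3 (limma, adjusted p = 0.185). ITGA3 stood at 69.8, 63.8 and 66.9 FPKM in CFPAC-1 controls and at 22.9, 32.7 and 33.1 FPKM in induced cells, so control 1 was with controls 2 and 3. Without this pair its change was -1.23 (limma, adjusted p = 0.103).

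Among 9 other tested integrin chains, ITGA10 and ITGA5 rose by 2.18 and 1.78 in CFPAC-1, and among 9 other basement membrane components NID1, the nidogen-1 gene, fell by 1.84. These changes were 1.23, 0.74 and -0.46 without controls 2 and 3. Of 16 kindlin and focal adhesion adaptor genes, 1 fell, VCL (vinculin), by 1.22, and its change was -1.01 without the pair. Among 6 tested proteases and sheddases, MMP14, a membrane metalloprotease, and ADAM17, a sheddase of collagen XVII, rose by 1.76 and 1.07, or 0.70 and 0.64 without the pair. Of 9 epithelial transcription factors, KLF5 and ELF3 rose by 2.91 and 1.55, or 0.15 and 0.78 without the pair. Adjusted p-values of these 8 genes were 0.00478 to 0.0403 in limma with all libraries, and 0.0969 to 0.882 without controls 2 and 3, where none passed. KLF5 stood at 45.9 FPKM in control 1, inside the induced range of 45.4 to 58.6 FPKM, and at 1.49 and 1.81 FPKM in controls 2 and 3. The 9 tested desmosome genes and 4 other plakins gave no call. PPL was at -2.0 and DSP at -1.05, and without controls 2 and 3 PPL turned to 0.52 and DSP moved to -0.41.

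Keratins, the filaments that hemidesmosomes anchor, differed within CFPAC-1. KRT5, the basal keratin, held 86.0, 0 and 0 FPKM in controls and 1.89, 43.7 and 38.7 FPKM in induced cells. KRT14, its partner, held 25.4, 0 and 0 FPKM and then 5.17, 56.1 and 52.0 FPKM. Among the 9 keratins 1 rose, KRT15, which was chosen for naming after its values were seen, at 2.11, 0.0989 and 0.162 FPKM in controls and 4.91, 4.70 and 4.54 FPKM in induced cells. Its change was 1.85 (limma, adjusted p = 0.0111), and 0.88 without controls 2 and 3, where it did not pass. KRT8 fell by 1.35 (limma, adjusted p = 0.0459), and by 1.29 without controls 2 and 3, where it did not pass.

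Between induced cells of the lines, 32 of the 84 genes were higher and 12 lower in BxPC-3, against 21.4% and 14.8% of all tested genes. Of the 9 tested keratins 3 passed. These were KRT17, KRT6A and KRT7, higher by 9.20, 8.25 and 7.67 on the log2 scale (limma, adjusted p of 3.27e-09, 7.86e-09 and 1.48e-08). KRT14 was at a mean of 35.44 FPKM in induced BxPC-3 and 37.75 FPKM in induced CFPAC-1. TP63, the basal epithelial regulator, stood at 5.19 to 11.3 FPKM in BxPC-3 and at most at 0.13 FPKM in CFPAC-1. GRHL2, another epithelial regulator, stood at 5.54 to 12.4 FPKM in BxPC-3 and at most at 0.0163 FPKM in CFPAC-1. Desmosome genes were higher for 7 of 9, led by DSC3, PKP1 and DSG3. The plakins PPL and DSP were higher by 3.85 and 3.37. Other genes of the lists passed in the lower direction in BxPC-3. They included LAMB2 (-4.70), LAMC1 (-1.41), ITGA10 (-3.12), ITGA5 (-1.23), TNS3 (-1.97), TLN1 (-1.20), ADAM17 (-1.86) and the transcription factor KLF4 (-1.62).

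**Figure D5:**
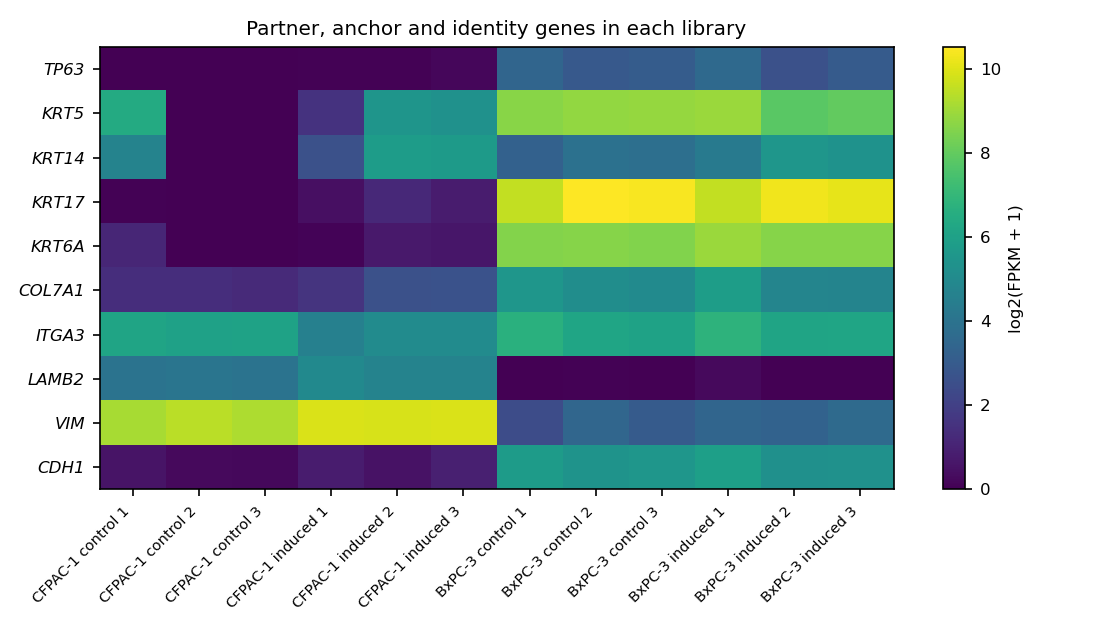
Levels of 10 partner, anchor and identity genes as log2(FPKM + 1) in each of the 12 libraries; brighter is higher. TP63, KRT17, KRT6A and CDH1 are high in BxPC-3 only, LAMB2 and VIM are high in CFPAC-1, and KRT5 and KRT14 are at 0 in CFPAC-1 controls 2 and 3.

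Profiles over the 12 libraries were compared with those of 6060 genes of at least 5 FPKM on average, as a description that the 2 lines and controls 2 and 3 dominate. The closest to LAMA3 were GALC, TINAGL1 and SLC37A2 (Pearson r of 0.988 to 0.989), and r was 0.982 to 0.989 without controls 2 and 3. LAMB3 was closest to IGFBP6 at 0.982, which dropped to 0.567 without them, and to SERPINB1 and SLC2A1. ITGB4 was closest to STAT6, IGFBP6 and PLEK2, and COL17A1 to CEACAM1, ALS2CL and CARD6. FERMT1 was closest to SMARCA4, MET and BST2, with r of 0.973 to 0.977 over 12 libraries and of 0.192 to 0.61 over 10. EPPK1 followed ELF4, IGFBP5 and EML2, at 0.969 to 0.989 over 12 libraries and 0.965 to 0.988 over 10. DST was closest to DIDO1, RNF6 and FAR1, ITGA6 to SYPL1, CNOT8 and DCBLD2, and PLEC to SLC16A5, IDH1 and BLVRB.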

How the data were processed

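RNA-seq of 12 libraries was used, per the labels. The authors deposited 1 table of log2(FPKM + 1) values, per the file header, and the offset was undone here to give FPKM. FastQC, StringTie and GRCh38 are named in the submitters' processing notes, while versions, the aligner, the annotation and strand use were not given in the sources used. The table holds no counts, whole reads were not recovered from low values, and depth is unknown, so no counting interval is given. The 12860 genes reaching 1 FPKM in 3 or more of 12 libraries were fitted with limma 3.58.1 (R 4.3.3) on log2(FPKM + 1), with 4 group means, 8 residual degrees of freedom, two-sided tests and Benjamini-Hochberg adjustment at 0.05. The fit was run on simulated data with the BxPC-3 spread in every group and no difference between lines. That run does not cover the wide spread of the CFPAC-1 controls. Changes on the log2(FPKM + 1) scale understate those of low genes.

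The 9 members, the lists and the markers were chosen with earlier results of these data known. From each list, up to 3 genes per direction past the threshold with a mean of at least 5 FPKM in the higher group were eligible for naming. Coordinates come from GENCODE release 29, which held 96.5% of the table's identifiers, and sequences from RefSeq (GRCh38.p14). Deviations from group means were compared between control and induced libraries of a line. Same-numbered libraries correlated at -0.0617, -0.0198 and -0.0798 in CFPAC-1 and at 0.151, 0.11 and 0.0535 in BxPC-3. In BxPC-3, number 1 correlated at -0.165 to -0.0767 with numbers 2 and 3, and these 2 at 0.152 and 0.0667 with each other. Deviations sum to 0 within a group, so these negative values follow in part from the positive value of number 1. Over all tested genes, BxPC-3 control 1 correlated at 0.9525 and 0.9474 with controls 2 and 3, which correlated at 0.9872. Induced library 1 correlated at 0.9487 and 0.9526 with induced libraries 2 and 3, which correlated at 0.9877. Library 1 thus stood apart in both BxPC-3 conditions, and whether numbers pair the libraries of that line was not settled. Between the lines, same-numbered libraries correlated at 0.287, 0.275 and 0.125 in induced and at 0.162, 0.119 and 0.119 in control libraries. Libraries of unlike number were not compared between the lines, so these values cannot show whether a number marks something shared. Alternatives covered the pseudocount, filter, scaling, limma settings, replicate block and left-out libraries. Some genes of these lists are not reported here and were left out of the list counts.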

Additional observations from a re-analysis of the deposited data

How the results depend on the processing

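The number of genes called was 2138 in CFPAC-1, 43 in BxPC-3, 315 for the difference of changes and 4660 between induced lines. A pseudocount of 0.1 gave 25 in BxPC-3 and 163 for the difference. Without a filter 73 were called in BxPC-3, and a mean FPKM of at least 5 gave 1329, 11, 162 and 2140. Each line fitted alone gave 364 and 13. Without CFPAC-1 controls 2 and 3, the counts were 222 in CFPAC-1 and 55 for the difference. Without library 1 of each group, chosen after seeing the data, they were 8714, 5396, 8023 and 8728, with 2 libraries a group. Leaving out 1 library at a time gave 506 to 5403 in CFPAC-1 (506 without control 2 or 3, 5403 without control 1), 2 to 249 in BxPC-3 (2 without control 3, 249 without control 1), 0 to 4148 for the difference (0 without BxPC-3 control 2, with 2281 at an unadjusted p under 0.05, and 4148 without CFPAC-1 control 1) and 3428 to 6078 between induced lines. For the difference, 54.6% of calls were higher, against 66.7% scaled without mitochondrially encoded genes and 36% after quantile normalization, which moved the median of all genes by -0.10 there and by -0.12 between induced lines.

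With the replicate block, 2428, 33, 306 and 4881 genes were called; COL17A1 in CFPAC-1 then passed (adjusted p = 0.0451 in limma), EPPK1 in BxPC-3 did not (adjusted p = 0.106), and no other call of a member changed. EPPK1 in BxPC-3 also did not pass at a pseudocount of 0.1 (adjusted p = 0.131), with no filter (0.074), scaled without mitochondrially encoded genes (0.0504) or with its line fitted alone (0.197), and its adjusted p ranged from 0.0025 to 0.258 over left-out libraries. LAMB3, ITGB4 and DST in CFPAC-1 did not pass with no filter (0.0547, 0.139 and 0.0584) or with the line alone (0.119, 0.188 and 0.0696). Over left-out libraries their adjusted p reached 0.0606, 0.163 and 0.101. PLEC between induced lines reached 0.18.

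Under the alternatives run, direction turned for changes of members that had not passed the threshold. Without controls 2 and 3, CFPAC-1 changes were -0.095 for LAMA3, -1.0 for ITGA6, -0.37 for COL17A1, -0.61 for PLEC and -0.83 for FERMT1, and the difference of changes was 0.55 for LAMA3, 0.034 for ITGB4, 1.05 for COL17A1 and 0.88 for FERMT1. Scaled without mitochondrially encoded genes, EPPK1 in CFPAC-1 was at -0.021, and LAMB3 and FERMT1 in BxPC-3 at -0.028 and -0.0024. Quantile normalization gave -0.13 for EPPK1 in CFPAC-1 and -0.020 for FERMT1 in BxPC-3. Without library 1 of each group the values were -0.14 for EPPK1 in CFPAC-1, -0.026 for LAMB3 in BxPC-3, -0.35 for the difference of ITGA6 and 0.15 for FERMT1 between induced lines. Leaving out single libraries gave -0.063 to 0.082 for EPPK1 and -0.072 to 0.86 for ITGA6 in CFPAC-1, -0.10 to 0.18 for LAMB3 and -0.028 to 0.22 for FERMT1 in BxPC-3, -0.39 to 0.60 for the difference of ITGA6, and -0.55 to 0.17 for FERMT1 between induced lines. The cause was not tested.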

Other observations

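Basement membrane genes outside the list differed between induced cells of the lines. COL4A5 and COL4A6, a pair of type IV collagen genes that lie head to head, stood at 8.65 to 14.6 FPKM and 13.9 to 24.7 FPKM in BxPC-3, while COL4A1 and COL4A2, the usual pair of basement membranes, were at most at 0.0459 FPKM there. In induced CFPAC-1 cells COL4A5 was listed at 0 and COL4A6 was at most at 0.25 FPKM, and COL4A6 was higher in BxPC-3 by 4.19 (limma, adjusted p = 6.3e-08). NID2, the nidogen-2 gene, stood at 7.88 to 15.2 FPKM in BxPC-3 and at most at 0.0157 FPKM in CFPAC-1. LAMB2 showed the reverse, at 15.0 to 30.8 FPKM in CFPAC-1 and at most 0.205 FPKM in BxPC-3 (-4.70, limma, adjusted p = 3.27e-09). COL7A1, the anchoring fibril collagen beneath hemidesmosomes, stood at 26.2 to 57.5 FPKM in BxPC-3 and at 1.39 to 5.38 FPKM in CFPAC-1.

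FERMT3, the kindlin known from blood cells, was at 37.1 to 58.1 FPKM in BxPC-3, above FERMT1 in all 6 libraries of that line, and at most at 0.725 FPKM in CFPAC-1 (4.65 between induced lines, limma, adjusted p = 1.89e-08). PTPRC, a gene of all white blood cells, was at most at 0.00981 FPKM in those libraries. MMP2, a secreted matrix metalloprotease, stood at 19.3 and 18.6 FPKM in the libraries labelled CFPAC-1 control 2 and 3 and at most at 0.0742 FPKM in the other 10. TFAP2C, an epithelial transcription factor gene, stood at 6.81 and 5.65 FPKM in that pair and was listed at 0 in the other 10.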
